A study of Mus musculus with 8 samples.

Results

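Among bone stromal cells of mice, mature osteoblasts with little Dmp1 were taken as the cells in which Bglap and Bglap2, the osteocalcin genes, together reached at least 100 of every 10000 unique molecular identifiers (UMIs, each standing for 1 captured transcript). The cells also had under 40 of every 10000 UMIs from Acan, Hapln1 and Matn3, which are genes of the cartilage matrix, and at most 2 UMIs of Dmp1, a gene of cells on the way to osteocytes. These values chose the cells, so the levels of these genes are given as a description and were not tested. The rule found 3531 cells, here called members, among the 45328 cells that had 500 to 6000 genes and at most 25% mitochondrial UMIs, or 7.79% of them. They came from all 8 libraries, with between 325 and 663 members in a library.

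Osteoblasts build bone. They secrete a matrix that is mostly type I collagen, add non-collagenous proteins to it and release vesicles and phosphate that let it mineralise. Osteocalcin is made late in this course, after the collagen genes, and some of the cells are then enclosed in the matrix and become osteocytes, which express Dmp1, Phex and Mepe.

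The Control group came from unfractured 12-week-old C57BL/6 wild-type females. The Fracture group came from C57BL/6 females, also labelled 12-week-old, whose left leg had been fractured at 10 weeks by bending and held with an intramedullary nail, and was collected at day 14. Preparations 1 and 2 of cells were made in each group, and each gave 2 droplet libraries, which were summed, so that n = 2 per group throughout. Cells carrying blood lineage antigens had been depleted in the study. The labels do not say whether preparations are separate animals or how many animals went into one, so p-values measure only the spread between these preparations, which may be technical.

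The libraries held 56543151 to 89126291 UMIs, and the members of a preparation held 7688862 to 23746356. The median member held 19198 UMIs in Control and 11491 in Fracture. Cells marked by endothelial genes, used as a reference that should lack osteoblast transcripts, had the opposite order, with 4898 and 7411. The smallest deposited barcode held 1 UMI in Control and 1929 in Fracture, and 2085 Control against 3 Fracture barcodes exceeded the mitochondrial limit, so the groups differed in which shallow barcodes were deposited. Libraries of 1 preparation shared 13 to 23 barcodes, of which 0 to 3 were members. Their summed member counts differed beyond sampling noise (mean chi-square per gene 2.39 to 4.13), so none counted as a repeat of another. Doublets were kept. The doublet caller marked 85 members, and in 4 libraries it marked under 0.5% of cells and so did not work there.

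Bglap lies at chr3:88383501-88384464 and Bglap2 at chr3:88377736-88378699, both on the minus strand (GRCm38, GENCODE M21), with Bglap3 beside them at chr3:88368616-88372743. The copies are near-identical paralogs, so the split of reads between them is uncertain, and the rule used the sum of Bglap and Bglap2. The RefSeq promoter of Bglap (GRCm38.p6, chr3:88384417-88384716, minus strand, from 250 bases before the start of transcription to 50 after) is shown because its transcript defines the cells. Capitals mark ACCACA, a core of the RUNX binding motif, and TTACATCA, the letters of an osteoblast-specific element known as OSE1, both searched on both strands.
Bglap promoter: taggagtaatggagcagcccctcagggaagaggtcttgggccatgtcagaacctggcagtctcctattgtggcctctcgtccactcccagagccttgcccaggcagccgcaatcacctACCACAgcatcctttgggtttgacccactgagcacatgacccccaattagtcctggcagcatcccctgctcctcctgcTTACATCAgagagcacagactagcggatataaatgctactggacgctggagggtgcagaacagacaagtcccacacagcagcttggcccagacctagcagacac
The match to the RUNX core begins 132 bases and that to OSE1 54 bases before the start. Over 32851 promoters of the same length, ACCACA was found in 16.8% and TTACATCA in 1.10%. A match is a description of the letters, not of binding.

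Bglap stood at 71439, 87612, 42097 and 53292 CPM in Control 1, Control 2, Fracture 1 and Fracture 2 (CPM, counts per 1000000 of all member UMIs), the order in which 4 values are given from here on. Bglap2 stood at 31353, 37219, 16431 and 22789 CPM. Both genes together made up 10.3% and 12.5% of all member UMIs in Control and 5.85% and 7.61% in Fracture, so both Fracture preparations lay under both Control preparations. Bglap3, which the rule did not use, stood at 76.8, 112, 173 and 61.6 CPM in the members, and the groups overlapped. In the endothelial-marked cells Bglap stood at 311, 179, 132 and 159 CPM.

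The other genes that name the class were high in the members. Car3 (chr3:14863512-14872523), a carbonic anhydrase, reached 3127, 3211, 2533 and 2281 CPM, against 291, 223, 165 and 153 CPM over all other cells. Ifitm5 (chr7:140948958-140950291), a membrane protein of mineralising osteoblasts, reached 1054, 893, 999.9 and 918 CPM, against 109, 82.0, 161 and 139.5 CPM in the others. Lipc (chr9:70798128-70952226), the gene of hepatic lipase, reached 248, 252, 178 and 164 CPM, against 23.8, 19.7, 10.4 and 10.1 CPM. Each of the 3 was higher in the members than in the other cells in each preparation, so the markers went with the label of a mature osteoblast. These are genes of the cells that were selected and give no test of the selection. Dmp1 (chr5:104202613-104214102) stood at 19.7, 16.0, 37.6 and 39.5 CPM in the members and at 546, 619, 838 and 779 CPM in the osteocalcin-high cells with 3 or more UMIs of it, called Dmp1-high here.

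**Figure D1:**
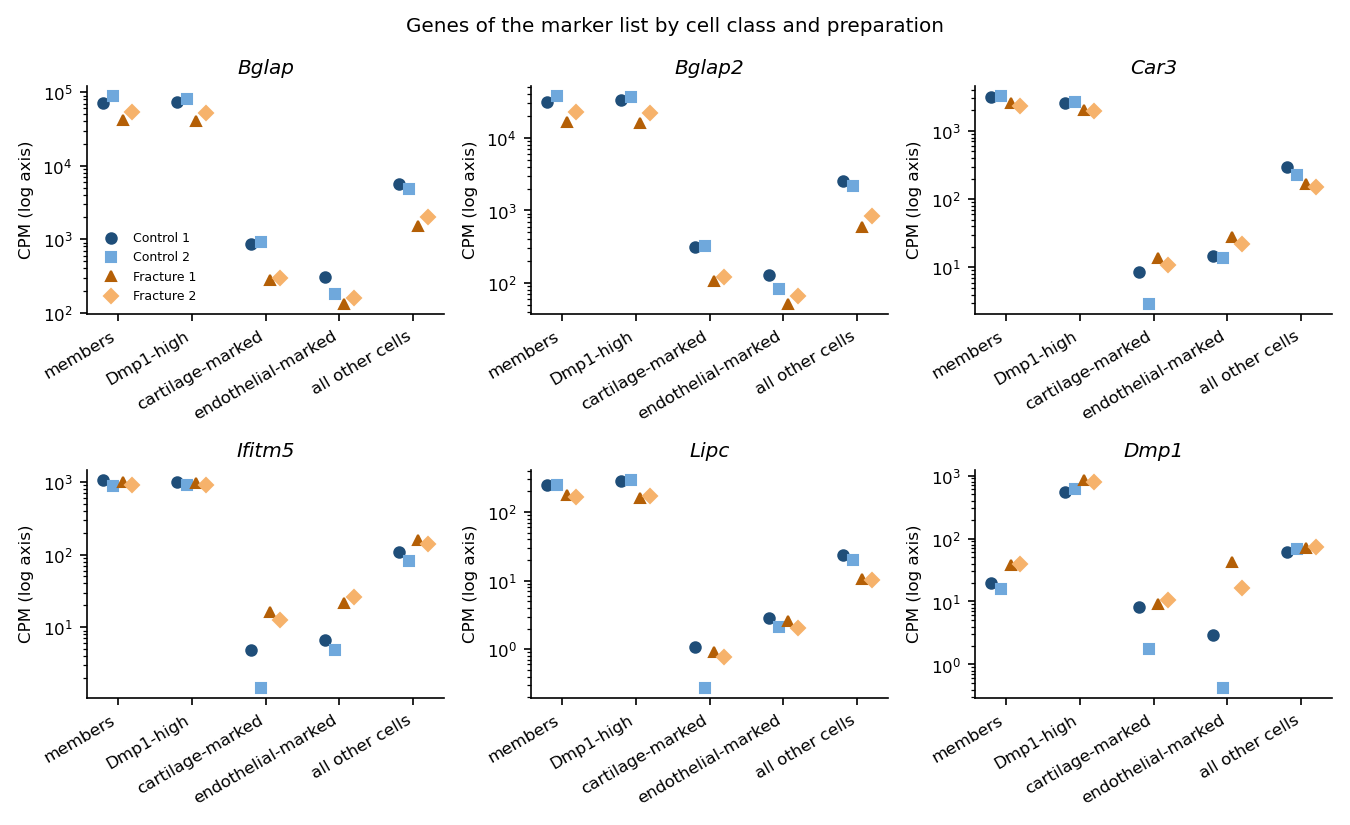
Level in CPM (log axis) of marker genes in the mature osteoblasts (members), the Dmp1-high cells, cartilage-marked cells, endothelial-marked cells and all other cells, with 1 point for each of the 4 preparations. Car3, Ifitm5 and Lipc stood at like levels in the members and the Dmp1-high cells and far lower in the other classes.

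Values just inside and just outside each limit are given once. At the lower osteocalcin limit, 114 members with 100 to 120 osteocalcin UMIs of 10000 held 18.2 UMIs of Car3 and 9.45 of Ifitm5 per 10000, and 114 cells with 80 to 100 held 15.6 and 8.26. The 362 members with 2 UMIs of Dmp1 held 26.3 UMIs of Car3 and 2.52 of Phex per 10000, and the 188 cells with 3 UMIs held 26.3 and 2.74. At the cartilage limit, the 20 members with 30 to 40 cartilage UMIs of 10000 held 5.85 UMIs of Car3 per 10000 and 252 of Col2a1, the main cartilage collagen, and the 23 cells just past it held 5.78 and 395. The few members near the cartilage limit thus held less Car3 than those near the other limits.

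The members differed among themselves in osteocalcin. In each preparation they were divided into terciles by Bglap and Bglap2, and the median per 10000 UMIs ran from 305 in the lowest to 1472 in the highest tercile in Control 1, from 249.8 to 1766 in Control 2, from 186 to 971 in Fracture 1 and from 215 to 1229 in Fracture 2. Depth moved with this division, above all in Control, where the median was 13100 against 23254 and 6246 against 32220 UMIs, with 10716 against 11817 and 10892 against 13238 UMIs in Fracture. Its part in what follows was not tested. Tercile levels are CPM of the UMIs other than those of Bglap and Bglap2, and ratios were taken after adding 1 CPM. Of 4589 genes with a mean of at least 20 CPM on this scale, 431 were higher and 1524 lower in the highest tercile in all 4 preparations. Per all UMIs, osteocalcin included, which shifts the log2 ratios, before 1 CPM is added, by -0.13 to -0.25, the counts were 111 and 2782, a scale tried after seeing the data. The terciles were made from the members' own counts, so these differences are a description without a test, and the genes given were chosen after their values were seen.

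Lipc, Car3 and Loxl2 ran with osteocalcin. Lipc stood at 181, 178, 120.1 and 96.3 CPM in the lowest terciles and 334, 347, 272 and 269 CPM in the highest. Car3 stood at 2677, 2412, 1919 and 1717 CPM and 4064, 4480.5, 3339.6 and 3322 CPM. Loxl2, an enzyme that crosslinks collagen, stood at 61.3, 129, 89.7 and 80.5 CPM and 288, 334, 215 and 225 CPM. In each of these genes the highest tercile was above the lowest in every preparation on both scales.

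Of 22 genes of earlier osteoblasts and stroma at this level, 13 were lower and 1 higher in the highest tercile in all 4 preparations (15 and 0 per all UMIs). Of all 4589 genes at this level, 1524 were lower and 431 higher (2782 and 111 per all UMIs). Most genes were thus lower per all UMIs, whatever their list. Tnc, the matrix glycoprotein tenascin C, stood at 290.2, 355, 133 and 120.2 CPM in the lowest terciles and 24.5, 25.4, 23.1 and 23.5 CPM in the highest. Postn, periostin, stood at 169, 219, 155 and 93.2 CPM and 9.13, 5.06, 23.1 and 27.3 CPM. Spp1, osteopontin, stood at 1926, 744, 4876 and 4867 CPM and 672, 141, 1308 and 1129 CPM. The lowest tercile was above the highest in every preparation for all 3 on both scales. Panx3, a channel protein, had log2 ratios of -2.28, -2.75, -2.18 and -2.58, highest over lowest. Runx2, the factor that starts the osteoblast programme, was also lower in the highest terciles, with smaller log2 ratios of -0.47, -0.86, -0.33 and -0.24. Col1a1, the main collagen gene of bone, had log2 ratios of 0.31, 0.37, 0.15 and 0.0028, and per all UMIs of 0.12, 0.12, 0.021 and -0.17, so that its direction in Fracture 2 depended on the scale.

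Markers of other cell types moved with the same division. Of 9 chondrocyte markers at a mean of at least 20 CPM, 7 were lower in the highest tercile in all 4 preparations on both scales. Of all 4589 genes, 1524 were lower without the osteocalcin UMIs and 2782 per all UMIs. Col2a1 was higher in all 4 without the osteocalcin UMIs but in the Control preparations only per all UMIs. Comp, cartilage oligomeric matrix protein, had log2 ratios of -2.42, -2.39, -1.98 and -2.12, and Chad, chondroadherin, of -2.46, -3.48, -2.51 and -3.03. Both smooth muscle and both basophil and mast cell markers at this level were also lower in all 4, as were 1 of 2 marrow stromal markers (Cxcl12, -1.32, -1.68, -2.11 and -0.77) and 1 of 2 neutrophil and monocyte markers. The haemoglobin genes were lower in 3 preparations and higher in Fracture 1, with log2 ratios of -5.61, -3.18, 0.59 and -2.92 for Hbb-bs. The part of RNA from other cells in these ratios was not tested.

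**Figure D2:**
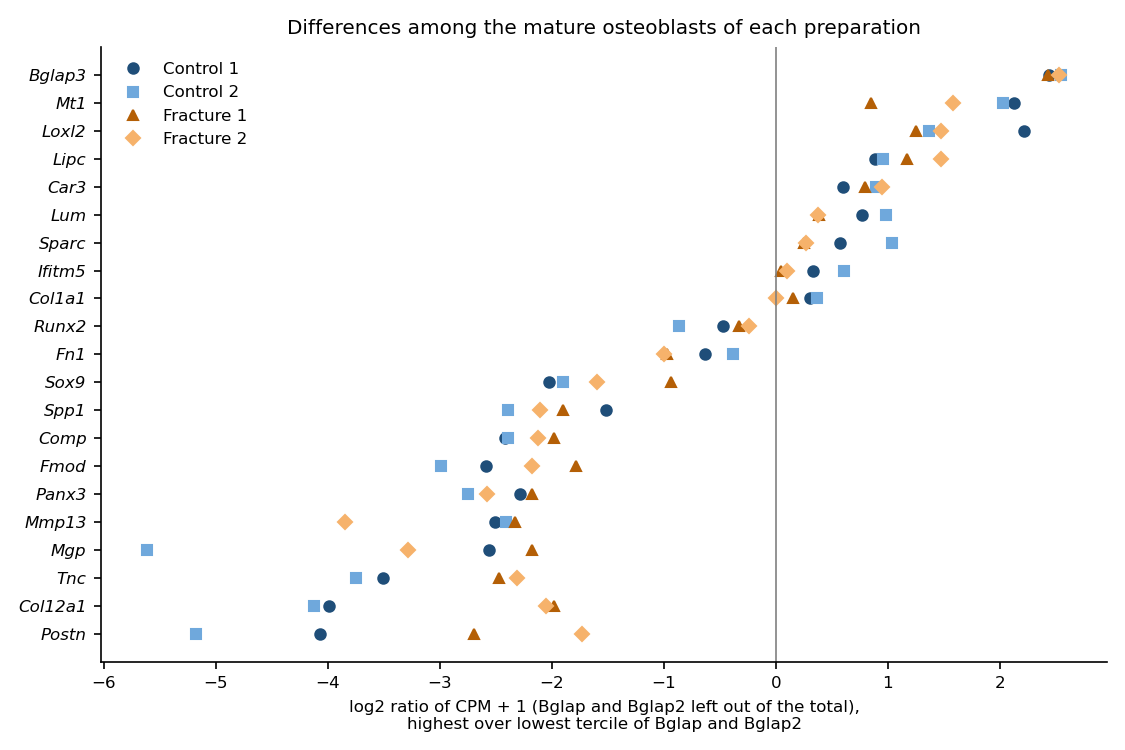
Log2 ratio of CPM + 1, with the UMIs of Bglap and Bglap2 left out of the total, between the terciles of mature osteoblasts highest and lowest in Bglap and Bglap2 (x axis), for 21 genes, with 1 point for each preparation. Lipc, Car3 and Loxl2 lay right of 0 and Tnc, Postn, Panx3 and Spp1 left of 0 in all 4 preparations.

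Members took a smaller share of all cells in Fracture. They were 1309 of 12755 cells in Control 1, 741 of 7921 in Control 2, 689 of 11867 in Fracture 1 and 792 of 12785 in Fracture 2, or 10.3%, 9.35%, 5.81% and 6.19% (95% Wilson intervals 9.75 to 10.8, 8.73 to 10.0, 5.40 to 6.24 and 5.79 to 6.63%, which cover counting error only). The means were 9.81% ± 0.642 in Control and 6.00% ± 0.275 in Fracture (SD, n = 2), and the difference of -3.81 percentage points had p = 0.333 by a two-sided exact permutation test, the smallest p this design allows. The share depended on what it was taken of. Outside blood cells and cartilage-marked cells, a denominator chosen after seeing the data, members were 14.0%, 12.4%, 12.1% and 12.6%, and the groups overlapped (difference -0.818 percentage points, exact permutation p = 0.667).

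Among the osteocalcin-high cells, members were 80.6%, 80.8%, 71.3% and 71.5%, the rest being Dmp1-high. The Wilson intervals were 78.6 to 82.5, 78.1 to 83.2, 68.3 to 74.0 and 68.8 to 74.1%, which cover counting error only. The difference of -9.31 percentage points had p = 0.333, the smallest possible (two-sided exact permutation test, n = 2). The SDs were 0.144 in Control and 0.207 in Fracture. They came from 2 values each and lay below the counting error, so the difference cannot be judged against them. A limit in UMIs is passed more easily by a deeper cell, and Control cells were deeper. With at most 2 Dmp1 UMIs per 10000 in place of 2 UMIs, the shares were 84.2%, 82.6%, 69.7% and 70.0%, a difference of -13.5 points in the same direction.

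**Figure D3:**
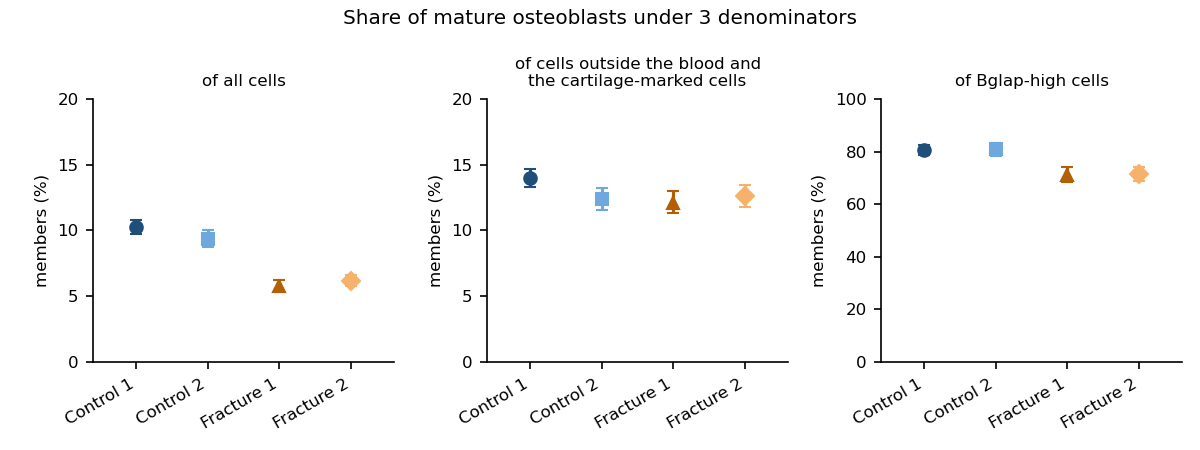
Share of mature osteoblasts (members) in percent (y axis) for 3 denominators, with 1 point per preparation and 95% Wilson intervals as bars. Both Fracture points lay under both Control points of all cells and of Bglap-high cells, while outside blood and cartilage-marked cells 12.6% in Fracture 2 exceeded 12.4% in Control 2.

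Fracture was compared with Control in the members across 12815 genes by edgeR's quasi-likelihood test on counts summed per preparation, with Benjamini-Hochberg adjustment over all genes tested. Of these, 402 genes rose (3.14%) and 119 fell (0.929%) at an adjusted p under 0.05, and 3276 had an unadjusted p under 0.05. The median log2 fold change over all genes was -0.0086, against which the median of each gene list is to be read. Control and Fracture preparations were fully separated in 7558 genes (59.0%). In 316 of the 402 genes that rose and 69 of the 119 that fell, the members' level in the group where the gene was higher lay under that of all other cells of that group, and what part RNA from other cells had in these calls was not tested. Over all other cells, the mean level was likewise higher in Fracture for 321 of the 402 and lower for 111 of the 119.

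The calls rested on both Fracture preparations. Without Fracture 1 the same edgeR test called 0 genes, with 1872 at an unadjusted p under 0.05, and without Fracture 2 it called 0, with 2014, the lone preparation being assumed to vary like those of the other group. Without Control 1 it called 1073 genes that rose and 687 that fell, and without Control 2 it called 1254 and 721.

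The 10 largest rises given here are of genes called, not overlapping between the groups and at a mean of at least 20 CPM. The mean of the Fracture members also had to reach that of the other Fracture cells, in CPM before TMM normalisation. Atf3 only just passed this limit, with 187 and 153 CPM in the members and 169 and 171 CPM in the others. Member levels that follow are CPM after TMM normalisation. Atf3, a transcription factor of the stress response, stood at 16.1 and 20.2 CPM in Control and 180.3 and 157 CPM in Fracture (log2 3.22 ± 0.15 SE, adjusted p = 0.0080 in edgeR). Plekhg2 stood at 10.97 and 11.1 CPM in Control and 79.8 and 65.6 CPM in Fracture (log2 2.72 ± 0.13, adjusted p = 0.0080). Gal, the neuropeptide galanin, stood at 22.8 and 18.7 CPM in Control and 94.0 and 102 CPM in Fracture (log2 2.24 ± 0.13, adjusted p = 0.011). That the groups did not overlap was required by the rule. Over all other Fracture cells Gal stood at 18.0 and 16.3 CPM. The Dmp1-high cells held more Gal than the members in Fracture, at 127 and 116 CPM, beside 22.7 and 23.7 CPM in Control. The Fracture Dmp1-high cells also held 311 and 320 CPM of Atf3 and 84.6 and 69.0 CPM of Plekhg2, more than the members.

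Cebpd, a transcription factor, rose from 44.1 and 42.6 CPM to 178 and 151 CPM (log2 1.92 ± 0.11). Hes1, a repressor known as a target of Notch signalling, rose from 36.0 and 52.2 CPM to 135 and 148 CPM (log2 1.68 ± 0.20), and Neat1, the long noncoding RNA of nuclear paraspeckles, rose from 677 and 872 CPM to 2144 and 2326 CPM (log2 1.53 ± 0.15). The remaining rises were Rasl11a, a small GTPase (log2 1.98 ± 0.27), Lrrc16a, which acts on actin capping (log2 1.81 ± 0.11), Gadd45g, a stress-induced gene (log2 1.33 ± 0.088), and Lurap1l (log2 1.17 ± 0.086). Rasl11a was the least even of them, at 68.5 and 41.2 CPM in the Fracture preparations. In Fracture 2, Cebpd stood at 147 CPM before TMM normalisation in the members and at 159 CPM in the other cells. The Fracture Dmp1-high cells held 326 and 291 CPM of Cebpd, 199 and 216 CPM of Hes1 and 3148 and 2960 CPM of Neat1. Each of these was more than in the members, while Lurap1l was lower there, at 68.9 and 62.5 CPM.

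The falls chosen by the same rule were smaller. Dtna, a component of the dystrophin complex, fell from 79.6 and 81.9 CPM to 35.8 and 36.4 CPM (log2 -1.16 ± 0.073 SE, adjusted p = 0.013 in edgeR). Bmp3, a member of the bone morphogenetic protein family that opposes the osteogenic ones, fell from 173 and 178 CPM to 98.0 and 89.6 CPM (log2 -0.90 ± 0.078, adjusted p = 0.023). Phex, an endopeptidase of osteoblasts and osteocytes that takes part in phosphate balance, fell from 314 and 261 CPM to 162 and 168 CPM (log2 -0.80 ± 0.11, adjusted p = 0.038). The rule required that the mean of the other Control cells was no higher, and they held 25.97 and 21.4 CPM of Bmp3 and 66.6 and 53.5 CPM of Phex. The Control Dmp1-high cells held more than the members, at 222 and 232 CPM of Bmp3 and 420 and 387 CPM of Phex. Dtna was alike in both, at 81.5 and 77.3 CPM in the Control Dmp1-high cells.

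Ptprz1, a receptor phosphatase, fell from 66.7 and 55.4 CPM to 28.5 and 31.7 CPM (log2 -1.02 ± 0.13). Prss35, of the serine protease family, fell from 423 and 455 CPM to 253 and 245 CPM (log2 -0.82 ± 0.073), and Fbn2, the microfibril protein fibrillin 2, fell from 94.8 and 110.4 CPM to 54.4 and 60.7 CPM (log2 -0.83 ± 0.11). Pik3ip1, an inhibitor of phosphoinositide 3-kinase, fell from 58.0 and 59.4 CPM to 28.9 and 29.7 CPM. Kank1, a protein of cell adhesions, Swap70, an adaptor of actin remodelling, and Kctd12b had log2 fold changes of -1.004, -0.99 and -0.90. Each gene of this paragraph was also lower in Fracture in the Dmp1-high cells, with Ptprz1 at 149, 116, 52.7 and 43.7 CPM and Kank1 at 121, 104, 46.6 and 40.3 CPM. In Control those cells held more than the members of both and of Pik3ip1, Swap70 and Kctd12b, and less of Prss35 and Fbn2. Over all other cells Kctd12b stood at 36.7, 41.1, 14.2 and 15.7 CPM and Fbn2 at 17.4, 16.5, 23.2 and 23.7 CPM.

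**Figure D4:**
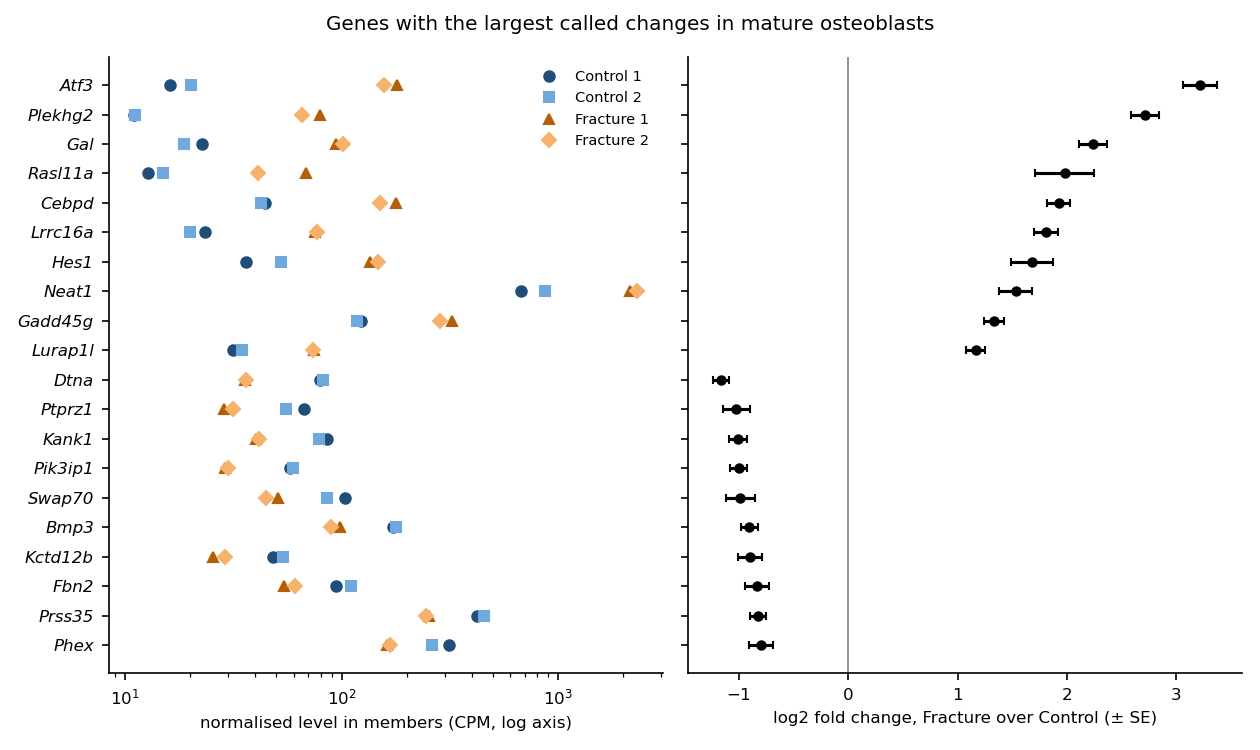
Normalised level in CPM (log axis) of the 10 largest rises and the 10 largest falls in mature osteoblasts among called genes within the limits on level and on the other cells given in the text, with 1 point per preparation, and the log2 fold change of Fracture over Control with its SE. The fold changes ran from 3.22 for Atf3 to -1.16 for Dtna.

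In the bone matrix and its mineral, of 32 genes tested, 5 rose and 2 fell, with a median log2 fold change of 0.24. The counts of this and the later lists are to be read against the 3.14% of all 12815 genes that rose and the 0.929% that fell. Col1a1 stood at 135195 and 149648 CPM in Control and 134763 and 147621 CPM in Fracture (log2 -0.013 ± 0.41 SE, adjusted p = 0.99 in edgeR). Ifitm5 stood at 1028, 931, 966 and 941 CPM (log2 -0.039 ± 0.084, adjusted p = 0.82) and Ibsp, bone sialoprotein, at 4589, 4779, 4057 and 4346 CPM (log2 -0.16 ± 0.11, adjusted p = 0.41). Alpl, the phosphatase that frees phosphate for mineral, stood at 455 and 515 CPM in Control and 636 and 651 CPM in Fracture and, although the groups did not overlap, missed the threshold (log2 0.41 ± 0.087, adjusted p = 0.078).

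The matrix genes that rose were Fmod, Panx3, Col12a1, Mgp and Fn1, and each was higher in the other Fracture cells than in the Fracture members. Fmod, the small proteoglycan fibromodulin, rose from 13.6 and 7.86 CPM to 85.5 and 91.1 CPM (log2 3.03 ± 0.28), beside 1264 and 1266 CPM in the other Fracture cells. Mgp, an inhibitor of calcification, rose from 392 and 375 CPM to 903 and 1234 CPM (log2 1.48 ± 0.17), beside 14116 and 14135 CPM, and Fn1, fibronectin, rose from 448 and 349 CPM to 1032 and 884 CPM (log2 1.27 ± 0.15), beside 6703 and 6706 CPM. The libraries of 1 preparation differed in Mgp, at 637 and 46.6 CPM in the libraries of Control 2 and 1476 and 407 CPM in those of Fracture 1, and without library 1 of Control 2 the ratio of the group means went from 2.81 to 4.76. Spp1 stood at 891 and 346 CPM in Control and 2738 and 2363 CPM in Fracture without passing the test (log2 2.04 ± 0.47, adjusted p = 0.087 in edgeR), beside 12356 and 11385 CPM in the other Fracture cells. Phex fell, as given above, and Tnc fell from 95.1 and 98.9 CPM to 67.7 and 59.3 CPM (log2 -0.61 ± 0.093).

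Of osteoblast transcription factors, 2 of 19 genes tested rose and 1 fell (median log2 0.12). Runx2 stood at 177, 173, 168 and 180.2 CPM (log2 -0.0083 ± 0.070 SE, adjusted p = 0.96 in edgeR) and Sp7, which acts after Runx2, at 291, 230.3, 247 and 241 CPM (log2 -0.096 ± 0.13, adjusted p = 0.69). The groups overlapped in both. Vdr, the vitamin D receptor, fell from 107 and 106 CPM to 59.7 and 65.6 CPM (log2 -0.77 ± 0.080, adjusted p = 0.027), beside 51.3 and 37.6 CPM in the other Control cells. Sox9, the chondrocyte factor, rose from 10.6 and 7.59 CPM to 36.1 and 35.1 CPM (log2 1.97 ± 0.18), beside 553 and 561 CPM in the other Fracture cells, and Nfatc1 rose from 13.1 and 12.7 CPM to 23.4 and 21.4 CPM (log2 0.80 ± 0.10), beside 68.7 and 71.6 CPM. The homeobox genes Dlx3 and Dlx5 had log2 fold changes of -0.43 ± 0.093 and -0.16 ± 0.068 without a call.

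Of genes of late osteoblasts and osteocytes, 1 of 21 genes tested rose and 2 fell (median log2 -0.26), beside 3.14% and 0.929% of all genes. Phex and Ptprz1 were the falls, and Mmp14, the membrane-bound collagenase, rose from 112 and 118 CPM to 155 and 153 CPM (log2 0.42 ± 0.067). Mepe, a matrix protein of osteocytes, was scarce, at 6.78, 7.25, 3.64 and 1.71 CPM (log2 -1.41 ± 0.35, adjusted p = 0.10 in edgeR). Dkk1, a Wnt inhibitor, stood at 80.2, 41.9, 31.5 and 34.5 CPM and did not pass the test (log2 -0.89 ± 0.32, adjusted p = 0.18), with Control preparations that lay far apart.

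Of the enzymes and chaperones of collagen, 7 of 25 genes tested rose and 1 fell (median log2 0.39). Pcolce, which speeds the cleavage of procollagen, rose from 533 and 488 CPM to 897 and 964 CPM (log2 0.86 ± 0.085 SE, adjusted p = 0.025 in edgeR), above the 555 and 561 CPM of the other Fracture cells. Fkbp10, a collagen chaperone, rose from 311 and 351 CPM to 505 and 528 CPM (log2 0.64 ± 0.088), also above the 395 and 387 CPM of the others. The prolyl hydroxylase subunits P4ha2 and P4hb rose by 0.72 and 0.57 on the log2 scale. Plod2, a lysyl hydroxylase named as the single fall after its values were seen, fell from 728 and 737 CPM to 548 and 559 CPM (log2 -0.40 ± 0.066). In the secretory pathway and unfolded protein response, 1 of 31 genes tested rose and 1 fell (median log2 -0.042), beside 3.14% and 0.929% of all genes. These were Ssr4, a subunit of the translocon-associated complex, which rose from 869 and 784 CPM to 1216 and 1227 CPM, and Hspa5, the main chaperone of the endoplasmic reticulum, which fell from 508 and 459 CPM to 293 and 274 CPM (log2 -0.77 ± 0.085).

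**Figure D5:**
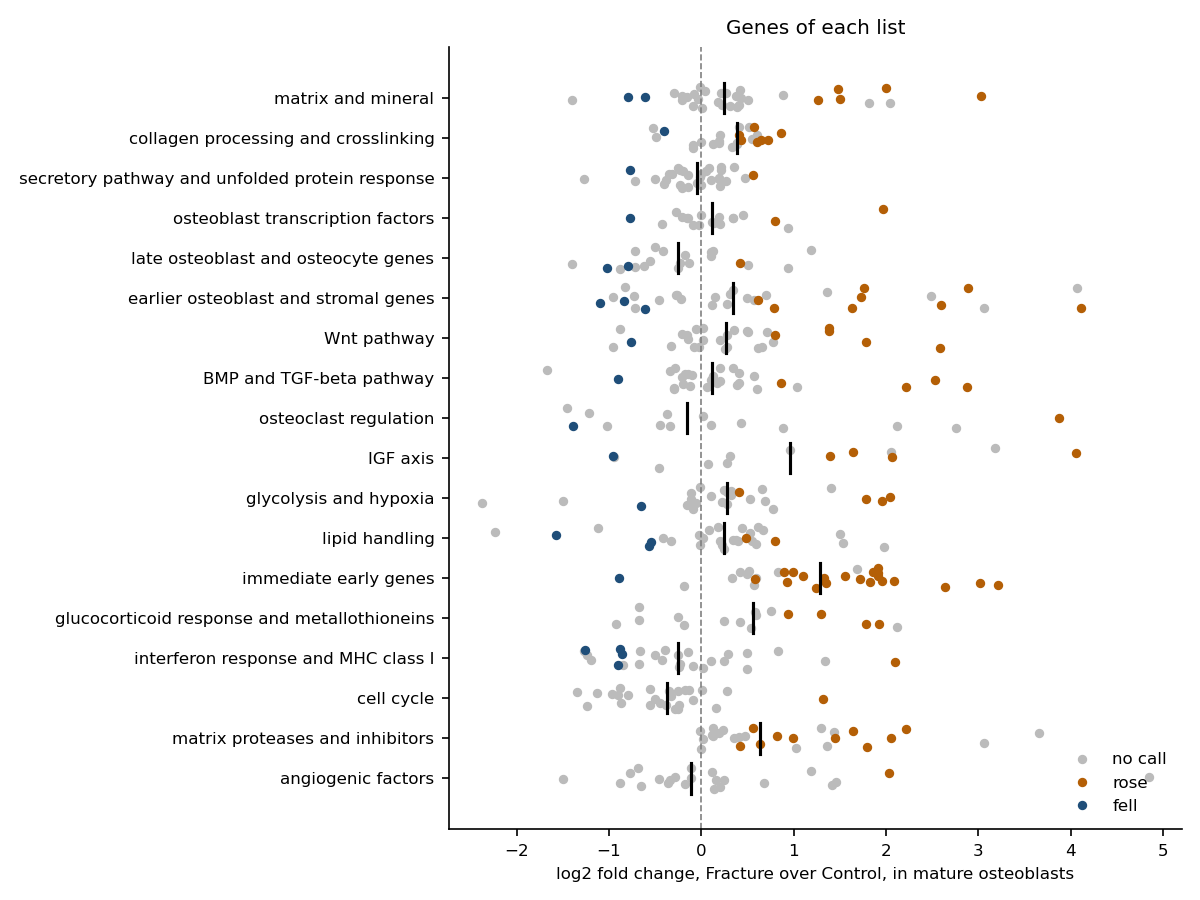
Log2 fold change of Fracture over Control in mature osteoblasts for every tested gene of the lists, with called genes coloured, a bar at the median of each list and a dashed line at the median of all genes (-0.0086). The immediate early genes had a median of 1.29, with 20 of 30 genes risen, beside 3.14% of all 12815 genes. The lists were chosen with earlier results of these data known.

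The immediate early genes are transcribed without new protein synthesis within minutes of a stimulus. In the members, of 30 genes tested, 20 rose and 1 fell, with a median log2 fold change of 1.29. Over all 12815 genes, 3.14% rose and 0.929% fell. The list was chosen with earlier results of these data known, so its count is a description. Egr1, a zinc finger factor, rose from 149.7 and 150.0 CPM to 590.4 and 575 CPM (log2 1.96 ± 0.065 SE, adjusted p = 0.0073 in edgeR). Junb, a subunit of AP-1, rose from 125 and 127 CPM to 562 and 508 CPM (log2 2.09 ± 0.081) and Socs3, an inhibitor of cytokine signalling, rose from 37.8 and 32.4 CPM to 304 and 263 CPM (log2 3.01 ± 0.13). No Control preparation reached a Fracture preparation in these genes. They were named for their small adjusted p, and 59.0% of all 12815 genes tested were separated in this way. Gadd45b, a stress-induced gene, rose from 58.4 and 53.6 CPM to 204 and 204 CPM (log2 1.86 ± 0.077). The single fall, Hsph1, a heat shock protein named after its values were seen, was from 15.7 and 15.7 CPM to 8.55 and 8.32 CPM. The other Fracture cells held 669 and 658 CPM of Egr1, 1169 and 1078 CPM of Junb and 459 and 428 CPM of Gadd45b, each more than the members.

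The RefSeq promoter of Atf3, which led the 10 rises named above, is shown (GRCm38.p6, chr1:191183284-191183583, minus strand, 250 bases before the start to 50 after). Capitals mark the match to TGACGT, the core of the cAMP response element, searched on both strands and found here in reverse.
Atf3 promoter: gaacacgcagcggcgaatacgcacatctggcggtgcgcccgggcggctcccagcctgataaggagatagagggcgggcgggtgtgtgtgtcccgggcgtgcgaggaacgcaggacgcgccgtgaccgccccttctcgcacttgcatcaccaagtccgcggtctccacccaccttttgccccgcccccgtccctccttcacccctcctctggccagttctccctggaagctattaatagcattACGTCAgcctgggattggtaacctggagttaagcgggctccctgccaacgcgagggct
The match begins 8 bases before the start, and 7.51% of the 32851 promoters hold one.

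Of matrix proteases and their inhibitors, 10 of 27 genes tested rose and 0 fell (median log2 0.64). Timp1, an inhibitor of metalloproteinases, rose from 195 and 156 CPM to 609 and 607 CPM (log2 1.79 ± 0.12 SE, adjusted p = 0.016 in edgeR). Htra1, a secreted serine protease, rose from 26.8 and 26.4 CPM to 82.6 and 82.8 CPM (log2 1.64 ± 0.073). Adamts1 and Adamts4, which cut proteoglycans, rose by 2.22 and 2.06 on the log2 scale. Adamts4, at 21.6 and 19.2 CPM in the Fracture members, was above the 16.5 and 17.0 CPM of the other Fracture cells, while those held 879.8 and 817 CPM of Timp1 and 297 and 277 CPM of Htra1, more than the members.

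In the Wnt pathway, 5 of 28 genes tested rose and 1 fell (median log2 0.27). Lrp4, a receptor of sclerostin, fell from 293 and 311 CPM to 177 and 180.1 CPM (log2 -0.76 ± 0.068 SE, adjusted p = 0.024 in edgeR) and was higher in the members than in the other cells of each preparation. Dkk3, of the Dickkopf family, rose from 6.74 and 5.88 CPM to 21.2 and 22.2 CPM and Frzb, a secreted Wnt-binding protein, rose from 18.5 and 21.5 CPM to 50.4 and 53.7 CPM, beside 409 and 383 CPM in the other Fracture cells. In the BMP and TGF-beta pathway, 4 of 31 genes tested rose and 1 fell (median log2 0.11), the fall being Bmp3. Id2, a target of BMP signalling, rose from 44.8 and 49.2 CPM to 86.1 and 85.1 CPM (log2 0.86 ± 0.082), while Tgfbi and Inhba rose to no more than 11.8 and 8.32 CPM and 8.67 and 6.50 CPM.

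In the IGF axis, 4 of 13 genes tested rose and 1 fell (median log2 0.96). Ghr, the growth hormone receptor, fell from 56.1 and 51.0 CPM to 26.6 and 28.6 CPM (log2 -0.96 ± 0.095 SE, adjusted p = 0.025 in edgeR), and Igfbp7, a binding protein, rose from 51.7 and 32.2 CPM to 212 and 139 CPM, beside 2349 and 2227 CPM in the other Fracture cells. Of genes of lipid handling, 2 of 29 genes tested rose and 3 fell (median log2 0.25). Lipc fell from 242 and 262 CPM to 172 and 168 CPM (log2 -0.57 ± 0.073, adjusted p = 0.035), and Car3, on the same list, stood at 3049.8 and 3347 CPM in Control and 2447 and 2338 CPM in Fracture without a call (log2 -0.42 ± 0.099, adjusted p = 0.094). Apoe, apolipoprotein E, fell from 68.1 and 56.8 CPM to 18.3 and 23.6 CPM, beside 1123 and 1058 CPM in the other Control cells.

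Of genes of glycolysis and hypoxia, 4 of 25 genes tested rose and 1 fell (median log2 0.27). Hk2, hexokinase 2, rose from 10.2 and 10.3 CPM to 30.4 and 40.3 CPM, and Ndrg1, a gene known to be induced by hypoxia, fell from 52.7 and 55.5 CPM to 33.9 and 34.6 CPM. Of the interferon response and MHC class I, 1 of 27 genes tested rose and 4 fell (median log2 -0.25). H2-D1, an MHC class I chain, fell from 859.9 and 875 CPM to 506 and 438 CPM (log2 -0.88 ± 0.095 SE, adjusted p = 0.027 in edgeR), and Irf1, a transcription factor of the interferon response, rose from 11.2 and 10.9 CPM to 46.5 and 48.3 CPM. Of the glucocorticoid response and metallothioneins, 4 of 16 genes tested rose and 0 fell (median log2 0.56), the rises being Cebpd, Errfi1, Nfkbia and Sgk1.

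Of genes of earlier osteoblasts and stroma, 8 of 31 genes tested rose and 3 fell (median log2 0.34). Thy1, a surface antigen of stromal cells, rose from 0.164 and 0.274 CPM to 3.52 and 3.94 CPM, and Aspn, the small proteoglycan asporin, rose from 3.53 and 4.03 CPM to 34.8 and 21.2 CPM, beside 20.7 and 18.7 CPM and 273 and 263 CPM in the other Fracture cells. Libraries of 1 preparation were uneven in both, with Thy1 at 6.06 and 1.28 CPM in Fracture 1 and 1.48 and 6.14 CPM in Fracture 2, and Aspn at 6.79 and 0.560 CPM in Control 2. Without library 1 of Control 2 the ratio of the group means of Aspn went from 7.57 to 13.6. Of the osteoclast regulators, 1 of 14 genes tested rose and 1 fell (median log2 -0.16), namely the chemokines Cxcl1 and Cxcl12, and Tnfrsf11b, the decoy receptor osteoprotegerin, had no call (log2 0.10 ± 0.18). Of angiogenic factors, 1 of 23 genes tested rose and 0 fell (median log2 -0.11), the rise being Thbs2, which opposes vessel growth (log2 2.03 ± 0.14). Of cell cycle genes, 1 of 26 genes tested rose and 0 fell (median log2 -0.37), the rise being Cdkn1c, an inhibitor of the cycle (log2 1.32 ± 0.12). Over all 12815 genes 3.14% rose and 0.929% fell. The single rises of the angiogenic and cell cycle lists lay near that share and are not read as results on these lists.

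Markers of other cell types were found in the members, and no marker of the 9 lists was at 0 UMIs in all of them. The 12 chondrocyte markers summed to 6273, 5719, 7319 and 7144 CPM in the members and 31207, 16092, 79589 and 77438 CPM in the other cells, and 5 of 12 genes tested rose and 0 fell (median log2 2.55). Col10a1, the collagen of hypertrophic cartilage, was among the rises, from 26.7 and 11.5 CPM to 724 and 441 CPM. The 10 endothelial markers summed to 40.3, 20.4, 153 and 102 CPM in the members and 1184, 1296, 772 and 824 CPM in the others, so the members' sum was higher in Fracture while that of the other cells was lower, and 3 of 10 genes tested rose and 0 fell (median log2 2.05). The 10 marrow stromal markers summed to 298, 243, 147 and 131 CPM and 5536, 5924, 460.2 and 526 CPM, lower in Fracture in both, and 0 of 9 genes tested rose and 2 fell (median log2 -1.12).

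The 10 erythroid markers summed to 247, 383, 1204 and 1368 CPM in the members, where 2 of 8 genes tested rose and 0 fell (median log2 1.30), and the 10 fibroblast markers to 766, 606, 750.2 and 665 CPM, where 1 of 8 genes tested rose and 0 fell (median log2 1.52). The 8 smooth muscle markers summed to 103, 29.9, 146 and 67.9 CPM and the 8 osteoclast markers to 221, 184, 266 and 220.0 CPM, with 0 and 1 calls in edgeR. The 12 neutrophil and monocyte markers summed to 94.8, 18.6, 16.3 and 219.9 CPM and the 7 basophil and mast cell markers to 433, 167, 79.3 and 2.81 CPM, both without a call. In Fracture 2, a single member held 770 of the 804 UMIs of S100a8, a neutrophil gene. The part of such transcripts in the calls given above was not tested.

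The fracture effect was next set against that of the 1084 Dmp1-high cells, by an edgeR test of the interaction of cell class and group that blocked on the preparation. Of 12336 genes tested, the effect was higher in the members in 24 (0.195%) and lower in 53 (0.430%). The Dmp1-high cells were deeper, with a median of 22864 UMIs in Control and 13010 in Fracture. The classes were divided by Dmp1, so differences in their levels were not tested. The dividing limit of 3 UMIs was also a larger part of a cell's UMIs in Fracture, where cells were shallower. Dmp1 stood at 546 and 619 CPM in the Control and 838 and 779 CPM in the Fracture Dmp1-high cells. The limit thus selected cells differently in the 2 groups, and its part in the interaction was not tested.

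Type I collagen stood out among the lower effects. Col1a1 stood at 135125, 149852, 134485 and 147732 CPM in the members and 116679, 130015, 145940.3 and 154012 CPM in the Dmp1-high cells, with log2 changes of -0.014 in the members and 0.28 in the Dmp1-high cells (difference of the log2 effects -0.30 ± 0.024 SE, adjusted p = 4.2e-05 in edgeR). Col1a2 differed in the same direction by -0.27 ± 0.027. Loxl2 stood at 168, 234, 134 and 144 CPM in the members and 86.0, 118, 134 and 148 CPM in the Dmp1-high cells, a difference of -0.997 ± 0.077. Of 32 matrix and mineral genes, the effect was lower in the members in 6 (Col1a1, Col1a2, Col5a2, Col11a1, Sparc and Dcn) and higher in 3 (Spp1, Tnc and Enpp1), members of the list that were named after their values were seen where they were not among the leading genes.

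Errfi1, a feedback inhibitor of the EGF receptor, stood at 29.1, 28.2, 57.7 and 51.6 CPM in the members and 30.1, 23.4, 134 and 125 CPM in the Dmp1-high cells, alike in Control and apart in Fracture (-1.32 ± 0.12). Nupr1, a stress-induced nuclear protein, differed by -0.53 ± 0.048. Of 30 immediate early genes, 4 had a lower effect in the members (Gadd45g, Jun, Klf4 and Klf6, named after their values were seen) and 0 a higher one. The largest difference among the named genes was in Mmp13, collagenase 3, with 33.4, 10.3, 151 and 216 CPM in the members and 153, 72.3, 157 and 94.8 CPM in the Dmp1-high cells (2.94 ± 0.28, adjusted p = 0.00018 in edgeR), where 3 cells held 38.3% and 62.3% of its UMIs in the members of Fracture 1 and 2. Tnc differed by 1.19 ± 0.17, Serpine2, a protease inhibitor, by 0.53 ± 0.067, Cst3, cystatin C, by 0.36 ± 0.050 and Lifr, a cytokine receptor, by 0.34 ± 0.053. Phex and Lipc did not pass the test of a difference (0.19 ± 0.082 and 0.096 ± 0.076, adjusted p = 0.54 and 0.80).

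Against the 14328 cartilage-marked cells, the same term was tested across 15676 genes, and the effect was higher in the members in 1275 (8.13%) and lower in 1658 (10.6%). Of 31 immediate early genes, it was higher in the members in 20 and lower in 2. Junb stood at 148, 148, 659.8 and 600.0 CPM in the members and 1012, 894, 1245 and 1149.7 CPM in the cartilage-marked cells (difference of the log2 effects 1.76 ± 0.094 SE, adjusted p = 9.9e-06 in edgeR), so its level was lower in the members in both groups while its change was larger. Socs3 stood at 44.6, 38.02, 357 and 311 CPM and 208, 143, 303 and 282 CPM (2.27 ± 0.11). Pcolce2, an enhancer of procollagen cleavage, stood at 24.0, 25.8, 97.5 and 97.5 CPM and 2009.8, 2019.9, 1378 and 1374 CPM (2.52 ± 0.093).

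The 5 leading genes with a lower effect in the members differed more between the groups in the cartilage-marked cells. Their log2 differences were -0.72 to 0.39 in the members and 1.97 to 3.57 in those cells. Lox, which crosslinks collagen, stood at 1079, 1052, 1171 and 1262 CPM in the members and 33.1, 30.2, 369 and 395 CPM in the cartilage-marked cells (-3.40 ± 0.089 SE, adjusted p = 2.9e-07 in edgeR). Omd, osteomodulin, stood at 197, 179, 247 and 244 CPM and 138, 129, 901 and 846 CPM (-2.32 ± 0.087). Basp1, Ramp1 and Cp differed by -4.08 ± 0.10, -3.01 ± 0.11 and -2.76 ± 0.099. Of 34 matrix and mineral genes, the effect was higher in the members in 9 and lower in 15, and of 32 genes of the secretory pathway it was higher in 0 and lower in 16.

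To compare how many members carried a transcript at all, 1000 UMIs were drawn at random from each cell, and 12 shallower members and 97 shallower endothelial-marked cells, all of Control, were left out. Each share has p = 0.333 where both Fracture preparations lie on 1 side of both Control preparations, the smallest p of the two-sided exact permutation test at n = 2. Car3 was found in 87.0%, 84.9%, 79.5% and 78.8% of the members, against 2.12%, 1.80%, 1.44% and 1.76% of the endothelial-marked cells, whose median depth is given above, and in 98.8%, 98.4%, 98.8% and 98.1% of the members before thinning. Lipc was found in 19.97%, 18.8%, 13.5% and 13.4% of the members, against 0.400%, 0.0784%, 0.0957% and 0.0801%, and in 83.3%, 81.9%, 72.6% and 74.6% before thinning. After thinning, both genes were found in fewer Fracture than Control members in every pair of preparations, while before it the groups overlapped in Car3. Ifitm5 was found in 57.4%, 43.0%, 60.2% and 58.0%, against 0.858%, 0.549%, 0.957% and 1.44%, and in 94.8%, 84.2%, 98.1% and 95.1% before thinning, with Control 2 lowest.

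Spp1 was found in 24.4%, 13.1%, 46.7% and 46.1% of the members, but also in 14.6%, 6.35%, 32.7% and 30.05% of the endothelial-marked cells, and in 73.7%, 48.0%, 96.8% and 94.4% of the members before thinning. Mmp13 was found in 2.16%, 1.48%, 6.10% and 5.30% of the members and 2.57%, 1.10%, 8.13% and 7.37% of the endothelial-marked cells after thinning, and in 14.8%, 8.50%, 32.9% and 35.1% of the members before it. In 3 of the 4 preparations the thinned share of members was under that of the endothelial-marked cells. Top2a or Mki67, genes of dividing cells, were found in 1.93%, 2.56%, 1.31% and 0.758% of the members, under the 3.09%, 5.33%, 13.2% and 12.98% of the endothelial-marked cells. Mepe was found in 0.463% and 0.810% of the Control members and in 0 of 689 and 0 of 792 Fracture members, which allows shares of up to 0.435% and 0.379% of cells with a UMI at this depth. Before thinning, Mepe was found in 6.32%, 7.83%, 2.47% and 2.02% of the members.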

How the data were processed

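The 8 Chromium libraries of lineage-depleted bone stromal cells came as 2 for each of 2 Control and 2 Fracture preparations. The authors deposited raw UMI counts per gene and cell, with no normalization. The submitters' processing notes name bcl2fastq 2.19.1.403, UMI-tools 1.0.0, STAR 2.7.3a, featureCounts 1.6.4 of Subread and mm10, without saying which step each served. The libraries held 56543151 to 89126291 UMIs.

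Cells were filtered and selected as given in the report, and counts were summed per preparation. Gene differences were tested by edgeR 4.0.16 in R 4.3.3 (filterByExpr, TMM, quasi-likelihood F test, Benjamini-Hochberg adjustment), and an SE is the log2 fold change divided by the square root of F. DESeq2 1.42.0 was an alternative, with adjusted p of NA kept so. Shares were tested by exact permutation in scipy 1.17.1, and doublets were called by Scrublet in scanpy 1.11.5. The scripts were checked on simulated data. The alternatives changed the limits of the rule, depth and doublet filters, normalization, low-count filter, libraries, preparations and block.

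Named were the 10 largest rises and falls by the rule given with them, all genes of the matrix, transcription factor and osteocyte lists, up to 4 called genes of each other list, and 5 genes per direction of each class-by-group term. Others are said to have been chosen after their values were seen. The members and the lists were chosen with earlier results of these data known. Promoters were taken from RefSeq. Intervals cover counting error only.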

Additional observations from a re-analysis of the deposited data

Results flagged for a closer look

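Each group had 4 libraries, which gave 310 sets of 4 values (a named gene's level in the members, in CPM, or 1 of 2 shares of members, in 1 group). Chance meets Dixon's criterion at the 95% level in about 1 in 20 sets of independent values. These values are 2 libraries from each of 2 preparations, so that rate need not hold. In 22 of the 310 sets, 1 library stood apart from the other 3 by this criterion. That library was the highest of its group for Alpl at 686 CPM in Fracture 1 library 2 against 629 to 638, Cd109 at 62.5 CPM in Fracture 1 library 1 against 50.5 to 52.1 and Cebpd at 49.5 CPM in Control 1 library 2 against 40.3 to 41.4. The same held for Dlx5 at 96.0 CPM in Control 1 library 1 against 79.0 to 81.2, H19 at 13.9 CPM in Fracture 2 library 2 against 5.27 to 6.16 and Ifitm1 at 38.2 CPM in Control 1 library 2 against 23.5 to 25.1, and for Lepr at 7.96 CPM in Fracture 1 library 2 against 4.91 to 5.27 and Omd at 237 CPM in Fracture 1 library 1 against 199 to 204. It was the lowest of its group for Alx4 at 4.11 CPM in Fracture 1 library 2 against 5.08 to 5.27, Car3 at 3050.0 CPM in Control 1 library 2 against 3207 to 3215 and Col12a1 at 61.4 CPM in Fracture 2 library 1 against 97.1 to 99.6. Lower values also stood for Col24a1 at 148 CPM in Fracture 2 library 2 against 162 to 165, Esrra at 5.32 CPM in Control 2 library 2 against 6.47 to 6.67 and Gadd45g at 102 CPM in Control 2 library 1 against 124 to 128, and for Ogn at 9.74 CPM in Fracture 2 library 1 against 14.1 to 14.8, Panx3 at 4.62 CPM in Control 2 library 2 against 8.39 to 9.01 and Phospho1 at 0.658 CPM in Control 1 library 2 against 1.26 to 1.38.

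The basophil and mast cell proteases and the neutrophil genes stood apart in single Fracture libraries, with Mcpt8 at 28.8 CPM in Fracture 1 library 2 against 0.847 to 3.43, Prss34 at 99.1 CPM in Fracture 1 library 2 against 0.635 to 1.84, S100a8 at 161 CPM in Fracture 2 library 2 against 2.37 to 3.81 and S100a9 at 168 CPM in Fracture 2 library 2 against 3.59 to 6.56. The haemoglobin gene stood low in 1 library, with Hba-a2 at 69.3 CPM in Fracture 1 library 1 against 115 to 119. S100a8 had a UMI in 4.17% of the members of Fracture 2, Prss34 in 1.89% of those of Fracture 1 and Hba-a2 in 19.2% and 19.9% of those of Fracture 1 and 2, while in Control 1 and 2 Prss34 had one in 53.2% and 31.6% and Mcpt8 in 48.2% and 20.6%. Single cells held large parts of the UMIs. In Fracture 2, 1 member held 770 of 804 UMIs of S100a8 and 1 held 808 of 853 of S100a9. In Fracture 1, 3 members held 307 of 393 UMIs of Prss34 and 3 held 88 of 125 of Mcpt8, and in each preparation 3 members held between 58.7% and 94.4% of the UMIs of Hba-a2.

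The change with fracture differed between the members and the Dmp1-high cells, by the class-by-group term in edgeR (adjusted p under 0.05), and among the genes with the smallest adjusted p it was more positive in the members, as a log2 difference, for Mmp13 (2.94), Serpine2 (0.53), Cst3 (0.36), Tnc (1.19) and Lifr (0.34). It was more negative in the members for Col1a1 (-0.30), Loxl2 (-0.997), Nupr1 (-0.53), Errfi1 (-1.32) and Col1a2 (-0.27). Against the cartilage-marked cells it was more positive in the members for Pcolce2 (2.52), Vit (2.27), Socs3 (2.27), Lrrc16a (1.76) and Junb (1.76), and more negative for Basp1 (-4.08), Lox (-3.40), Omd (-2.32), Cp (-2.76) and Ramp1 (-3.01).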

How the results depend on the processing

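Of the genes of the members, 402 rose and 119 fell in Fracture. With all genes of at least 1 UMI tested the counts were 1112 and 855, with library 1 of each preparation 210 and 53, and with library 2 127 and 24. The falls were 199 with the osteocalcin limit at 50 of 10000 and 296 with DESeq2. Without 1 preparation in turn, between 0 and 1254 genes rose and between 0 and 721 fell, the counts of 0 being those without a Fracture preparation. With the osteocalcin limit at 200, the cartilage limit at 10 of 10000, Dmp1 at most 2 of 10000, DESeq2 size factors in edgeR, no upper limit of genes, at least 3000 UMIs, or called doublets or (chosen after seeing the data) the cells of the highest doublet scores left out, both counts stayed within 1.5 times. Of the named gene results past the threshold, in the members and in the class-by-group terms, none changed direction under these settings, but calls were lost: 89 without Fracture 1, 90 without Fracture 2, 44 with library 2, 29 with library 1, 13 with the replicate block, 13 without the highest doublet scores, 10 at the osteocalcin limit of 200, 6 at the cartilage limit of 10, 3 with Dmp1 per 10000 UMIs, 2 at the osteocalcin limit of 50, 2 with DESeq2, 2 without called doublets, 1 with DESeq2 size factors and 1 with no upper limit of genes. Leaving out each library in turn, a choice made after seeing the data, moved the ratio of the group means by over 1.5 times in 33 of the 402 genes that rose and 4 of the 119 that fell, and among genes given in the text in Mgp, Aspn, Cxcl12 (from 0.384 to 0.256 without library 2 of Fracture 1), Hba-a2 (from 6.51 to 4.23 without library 1 and 14.9 without library 2 of Control 1) and Hbb-bs (from 6.14 to 10.4 without library 2 of Control 1), without a change of direction.

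Each group has preparations 1 and 2, and the deviations of same-numbered preparations correlated at r = 0.109 over 12815 genes. With 2 pairs only, this cannot show whether same-numbered preparations shared more than a number. With the number as a replicate block, 294 genes rose and 96 fell, of which 249 and 64 were also called without it.

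Log2 fold changes in the members that were not past the threshold changed sign in 15 named genes. This was so at the osteocalcin limit of 50 for Ackr3 (0.057), Col1a1 (0.010), Ifitm5 (0.0092) and Ogn (-0.058), at that of 200 for Col5a2 (-0.016) and Slc20a2 (0.17), at the cartilage limit of 10 for Col1a1 (0.021), Ogn (-0.027), Runx2 (0.00054) and Tnfrsf11b (-0.12), with Dmp1 per 10000 UMIs for Ackr3 (0.098), with library 1 for Ackr3 (0.31), Cbfb (0.0037), Col1a1 (0.025), Ogn (-0.0084) and Runx2 (0.011) and with library 2 for Alx4 (-0.023), Col5a2 (-0.013) and Tnfrsf11b (-0.011). It was also so with all genes tested for Col5a2 (-0.017), at 3000 or more UMIs for Col5a2 (-0.0012), with no upper limit of genes for Cbfb (0.022), Col1a1 (0.043), Ifitm5 (0.016) and Runx2 (0.036), without called doublets for Col5a2 (-0.012) and Lcp1 (0.31) and without the highest doublet scores for Runx2 (0.0076). Without 1 preparation in turn the values of Ackr3 (-0.72 to 0.38), Acta2 (-0.27 to 3.90), Alx4 (-0.025 to 0.26), Cbfb (-0.13 to 0.085), Col1a1 (-0.080 to 0.060), Col5a2 (-0.032 to 0.059), Ifitm5 (-0.11 to 0.038), Lcp1 (-1.36 to 0.61), Runx2 (-0.053 to 0.048), Slc20a2 (-0.53 to 0.070), Smpd3 (-0.11 to 0.20), Sp7 (-0.26 to 0.086), Tnfrsf11b (-0.069 to 0.28) and Twist1 (-0.026 to 0.33) passed through 0.

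The effect was higher in the members than in the Dmp1-high cells in 24 genes and lower in 53. The counts were 59 and 91 with Dmp1 taken per 10000 UMIs, 87 and 168 with all genes tested, 71 and 117 without the highest doublet scores, and from 11 to 126 and from 31 to 128 without 1 preparation in turn, with both lowest counts without a Fracture preparation. Against the cartilage-marked cells the 1275 higher and 1658 lower effects ran from 645 to 1625 and from 794 to 2144 without 1 preparation in turn, also lowest without Fracture 2. The cause of these changes was not tested.

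The mean share of members in all cells was lower in Fracture, with differences of -5.03 percentage points at 3000 or more UMIs, -5.32 outside the blood, -0.818 outside the blood and the cartilage-marked cells, where the groups overlapped, and -4.26 to -3.35 without 1 preparation in turn. Among osteocalcin-high cells the difference was -8.74 at a limit of 200, -13.5 with Dmp1 per 10000 UMIs, -8.99 with no upper limit of genes, -8.29 at 3000 or more UMIs, -9.64 without the highest doublet scores, and -9.45 to -9.16 without 1 preparation in turn. With 2 preparations a group no share could reach an exact p under 0.333, and depth differed between the groups.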
